A study of Arabidopsis thaliana with 2 samples.

Results

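Transcripts of the cell division machinery were followed in early globular embryos of Arabidopsis thaliana. The genes were 45 loci chosen by name: the A, B and D cyclins, the A-type and B-type cyclin-dependent kinases (CDKs), the KRP inhibitors, the CDC20 and CCS52 activators, the Aurora kinases and WEE1. Of the 45 loci, 43 were among the 20612 loci of the deposited table. CYCA2;1 (AT5G25380) and KRP3 (AT5G48820) were not analysed here.

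There were 2 poly(A) RNA libraries, each made from 30 hand-dissected embryos whose RNA was pooled. The dcl1-5 library came from embryos mutant for DICER-LIKE1, or DCL1, which makes plant microRNAs from longer precursors, and the wild-type library came from the Col-0 strain. Plants of both groups had days of 16 hours of light followed by 8 hours of dark. The strain background of the mutant and the way its embryos were picked are not given in the sources used here, and no other allele or agent is named.

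A cyclin binds a CDK and switches it on, and different cyclins do this at different steps of the cell cycle. D cyclins act at the entry into the cycle, A cyclins mainly from DNA synthesis onwards, and B cyclins at mitosis. KRP and SIAMESE-type proteins inhibit the cyclin-CDK complexes. The anaphase-promoting complex (APC/C), activated by CDC20 or CCS52, marks mitotic cyclins for destruction. Cells that stop dividing but go on copying their DNA enter the endocycle, as leaf hair and hypocotyl cells do. The cells of the globular embryo proper divide actively.

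Levels are given in RPM, a count of reads scaled to the total of genome-matching reads in the library. The dcl1-5 library held 4513588 such reads and the wild-type library 5611643, so that 1 read stood for 0.222 RPM in dcl1-5 and 0.178 RPM in wild type. Ratios are dcl1-5 over wild type, and brackets hold exact 95% intervals, which cover counting error of reads only. Amplified reads are not independent molecules, so these intervals can be too narrow even for that error. With 1 library per genotype there is no replicate check and no p-value for the genotypes. Each log2 ratio was taken after adding 1 RPM to both values, which understates changes of low genes. Loci averaging 5 RPM or more across the libraries were compared, 10240 in all, and those whose log2 ratio reached 2-fold were counted. DCL1 (AT1G01040) itself had 0.665 RPM in dcl1-5 and 4.63 RPM in wild type, a ratio of 0.143 [0.0278-0.468], and it overlaps a locus on the same strand. Embryo marker genes were read in both libraries, LEC1 at 287 RPM in dcl1-5 and 251 RPM in wild type among them. In bulk samples, fewer cells of a type and less RNA per cell cannot be told apart.

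Of the 43 genes, 23 reached the mean of 5 RPM and 20 did not. Of the 23, 4 reached 2-fold upwards in dcl1-5 (17.4%) and 1 reached it downwards (4.35%), while 18 did neither. Of all compared loci, 33.8% reached 2-fold upwards and 4.58% downwards. The share that was lower thus stood near that of all loci, and the share that was higher was below it. Together the 43 genes had 1114 RPM in dcl1-5 and 1045 RPM in wild type, a ratio of 1.07 [1.03-1.11]. More RPM was found in dcl1-5 for 31 of the 43 genes and in wild type for 12, beside 14150 and 6462 of the 20612 listed loci. Under TMM scaling, described next, 12 of the 23 compared genes change sign.

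All compared loci had a median log2 ratio of 0.63, so most of the transcriptome lay higher in the dcl1-5 library after the authors' scaling. The 23 genes had a median of 0.24, and of -0.38 relative to that of all loci. After the median of all loci was subtracted, 1 of the 23 reached 2-fold upwards, beside 14.6% of all loci, and 3 downwards, beside 14.4%. TMM scaling, which multiplied the ratio of dcl1-5 to wild type by 0.628 at every locus, gave 1 higher and 3 lower. Beside these stood 15.0% and 14.5% of all loci. Median-of-ratios scaling gave 2 higher and 2 lower, beside 19.4% and 10.7%. Its factor of 0.717 was taken only from loci averaging 20 RPM or more, and it left all compared loci a median log2 ratio of 0.18. Among the 15 genes averaging 20 RPM or more, 2 were higher and 1 lower, beside 25.8% and 4.57% of all loci. The inhibitor KRP5 was higher and the D cyclin AT5G67260 lower in each of these settings. The shift also depended on expression: with the loci in 10 bins of equal size by mean RPM, the median log2 ratio was 0.86 in the lowest bin and 0.06 in the highest.

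**Figure D1:**
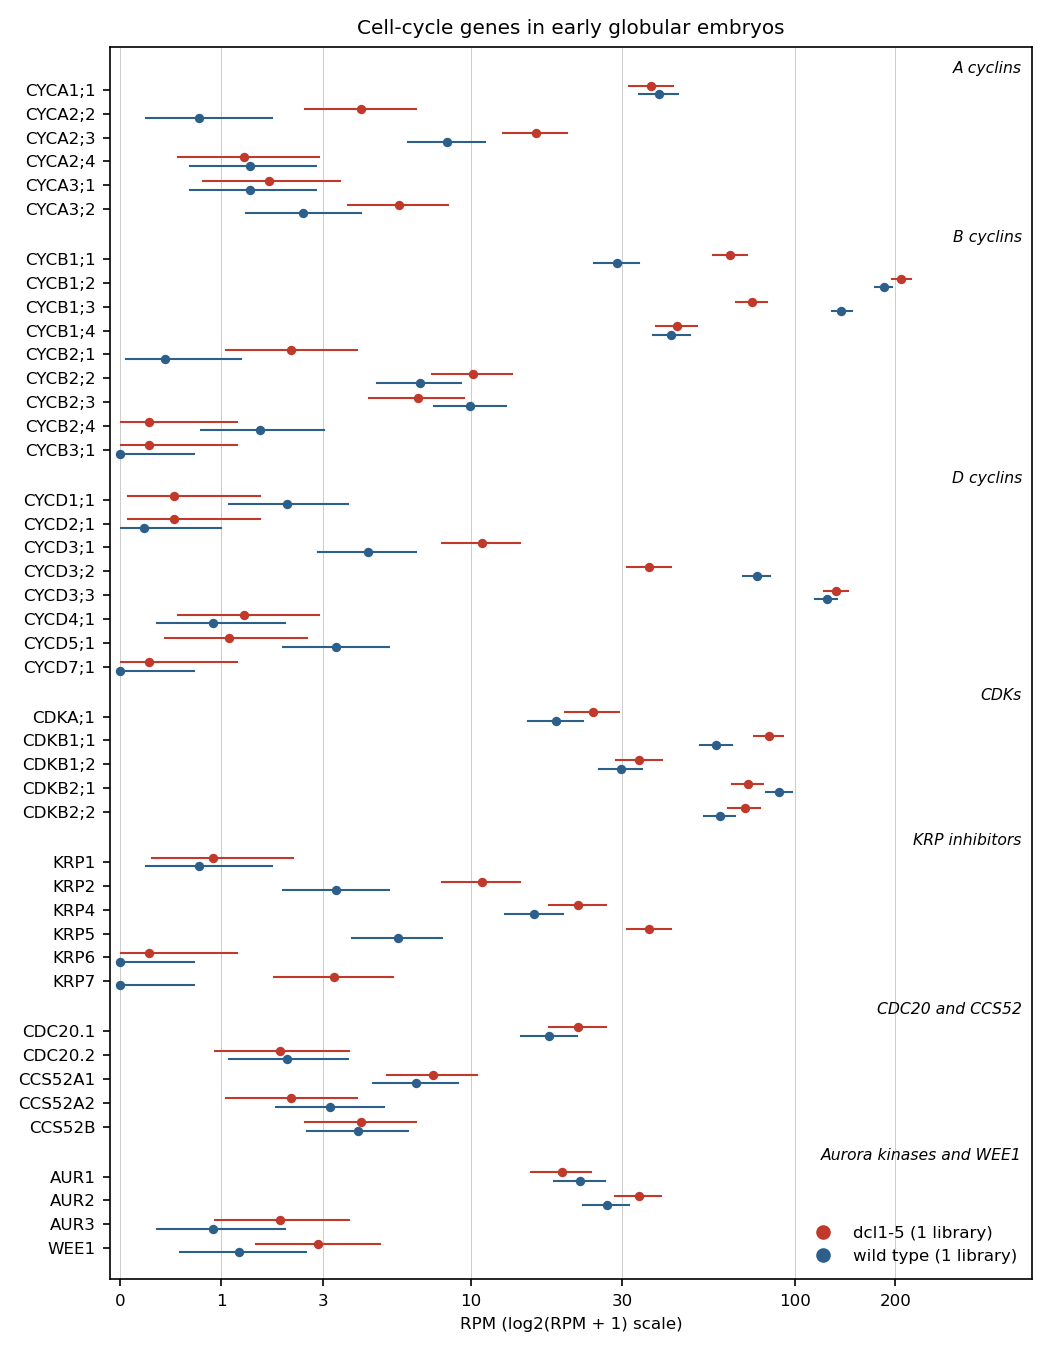
RPM of the 43 genes in dcl1-5 embryos (red, upper of each pair) and wild-type embryos (blue, lower of each pair), on a log2(RPM + 1) axis, with exact Poisson 95% intervals, 1 library per genotype. Most pairs lie close together, KRP5 stands apart at 36.3 RPM in dcl1-5 and 5.70 RPM in wild type, and 4 genes were at 0 in wild type.

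In the plot of levels by gene the widest range is that of the B cyclins, between 208 RPM and 0, whereas the CDKs lie between 18.7 and 89.6 RPM. Levels of different genes were compared per kb of coding length. On that scale CYCB1;2 (AT5G06150), a mitotic cyclin, led the set, with 156 RPM per kb in dcl1-5 and 138 RPM per kb in wild type. The cyclin CYCD3;3 (AT3G50070) had 122 RPM per kb in dcl1-5 and 115 RPM per kb in wild type. In wild type these ranked at the 94.3 and 93.5 percentiles of loci with a coding length. CYCB1;3 (AT3G11520), next in wild type with 111 RPM per kb, had 59.6 RPM per kb in dcl1-5. The main kinase CDKA;1 (AT3G48750) stood lower, at 27.5 RPM per kb in dcl1-5 and 21.1 RPM per kb in wild type.

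Among the A cyclins, 2 of 6 analysed genes were compared and neither passed 2-fold. CYCA1;1 (AT1G44110), a cyclin of mitosis, had 36.8 RPM in dcl1-5 and 38.8 RPM in wild type, a ratio of 0.947 [0.769-1.16]. Its log2 ratio of -0.08 was -0.70 relative to the median of all loci. CYCA2;3 (AT1G15570), known as a partner of the B1-type kinases that holds back the endocycle, had 16.2 RPM in dcl1-5 and 8.38 RPM in wild type. Its ratio was 1.93 [1.32-2.85], a log2 ratio of 0.87, or 0.25 relative to the median of all loci. The other 4 had few reads: CYCA2;2 (AT5G11300) 19 in dcl1-5 and 4 in wild type, CYCA2;4 (AT1G80370) 6 in dcl1-5 and 8 in wild type, CYCA3;1 (AT5G43080) 8 in each library, and CYCA3;2 (AT1G47210) 26 in dcl1-5 and 14 in wild type. The ratio of AT5G11300 was 5.91 [1.96-23.9] from those few reads.

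The B cyclins drive mitosis, and their sum was close in both libraries while their make-up differed. The 9 genes summed to 410.0 RPM in dcl1-5 and 413 RPM in wild type, a ratio of 0.994 [0.935-1.06]. Of the 6 compared, 1 reached 2-fold upwards and none downwards, beside 33.8% and 4.58% of all loci. Relative to the median of all loci none was higher and 2 were lower, beside 14.6% and 14.4%. CYCB1;1 (AT4G37490), the cyclin commonly used to mark cells in G2 and mitosis and also raised by DNA damage, had 64.0 RPM in dcl1-5 and 28.9 RPM in wild type. Its ratio was 2.22 [1.82-2.71] and its log2 ratio 1.12, or 0.49 relative to the median of all loci. The gene AT3G11520 was lower in dcl1-5, with 74.2 RPM in dcl1-5 and 138 RPM in wild type, a ratio of 0.537 [0.471-0.612]. Its log2 ratio of -0.89 missed 2-fold, and it was -1.51 relative to the median of all loci. The leading gene AT5G06150 had 208 RPM in dcl1-5 and 185 RPM in wild type, a log2 ratio of 0.17, which was -0.45 relative to that median. CYCB1;4 (AT2G26760) had 44.1 RPM in dcl1-5 and 42.4 RPM in wild type, with a log2 ratio of 0.05, which was -0.57 relative to it.

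Shares within a family do not depend on a single scaling factor between the libraries. They are not freed from the shift that depends on expression, which holds for every share given here. AT5G06150 lay in the highest bin by mean RPM, with a median log2 ratio of 0.06. The other 3 CYCB1 genes lay in bins with 0.44 or 0.55. Of the 1764 CYCB1 reads in dcl1-5 and 2211 in wild type, AT4G37490 took 16.4% [14.7-18.2] in dcl1-5 and 7.33% [6.28-8.49] in wild type. AT3G11520 took 19.0% [17.2-20.9] in dcl1-5 and 35.1% [33.1-37.1] in wild type. AT5G06150 took the most in both, 53.3% [51.0-55.7] in dcl1-5 and 46.9% [44.8-49.0] in wild type, and AT2G26760 took 11.3% in dcl1-5 and 10.8% in wild type. The intervals of the last gene overlapped and those of the other 3 did not. Counting error alone separates many loci here: a binomial test of reads, described below, called 7567 of the 10240 compared loci. Overlaps of such shares were not counted over all loci.

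The CYCB2 cyclins were much lower, 19.3 RPM in sum in dcl1-5 and 18.7 RPM in wild type. CYCB2;2 (AT4G35620) had 10.2 RPM in dcl1-5 and 6.77 RPM in wild type, a ratio of 1.51 [0.958-2.38]. CYCB2;3 (AT1G20610) had 6.65 RPM in dcl1-5 and 9.98 RPM in wild type, a ratio of 0.666 [0.413-1.06]. Both intervals include 1. Relative to the median of all loci the log2 ratios of CYCB2;2 and CYCB2;3 were -0.10 and -1.15. CYCB2;3 thus passed 2-fold downwards by that measure and, at -1.12, under TMM scaling, as did CYCB1;3 and CYCD3;2. Under median-of-ratios scaling, at -0.95, it did not. The remaining B cyclins were under the minimum. CYCB2;1 (AT2G17620) had 10 reads in dcl1-5 and 2 in wild type, a ratio of 6.22 [1.32-58.4], and CYCB2;4 (AT1G76310) had 1 read in dcl1-5 and 9 in wild type, a ratio of 0.138 [0.00315-0.997]. CYCB3;1 (AT1G16330) had 1 read in dcl1-5 and 0 in wild type, both under the floor of 3 reads.

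**Figure D2:**
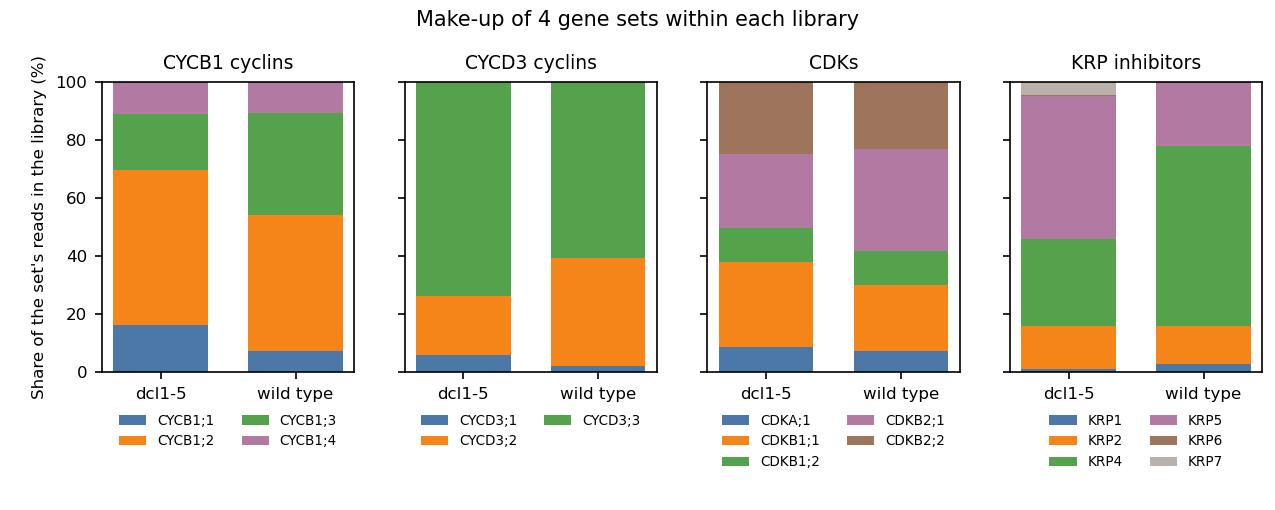
Share of reads (%) taken by each gene within the CYCB1 cyclins, the CYCD3 cyclins, the CDKs and the KRP inhibitors, in dcl1-5 embryos (left bar of each pair) and wild-type embryos (right bar), 1 library each. KRP5 took 49.4% of KRP reads in dcl1-5 and 22.1% in wild type, whereas KRP4 took 29.8% in dcl1-5 and 62.1% in wild type.

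D cyclins relay growth signals to the entry into the cell cycle, and in these embryos nearly all their reads came from the CYCD3 genes, which are known in leaves and meristems to keep cells in mitotic cycles. The 3 CYCD3 genes summed to 180.0 RPM in dcl1-5 and 206 RPM in wild type, a ratio of 0.874 [0.798-0.957]. CYCD3;2 (AT5G67260) had 36.3 RPM in dcl1-5 and 76.8 RPM in wild type, a ratio of 0.473 [0.393-0.568]. It was the only gene of the 23 to reach 2-fold downwards before any centring, with a log2 ratio of -1.06, or -1.69 relative to the median of all loci. AT3G50070 had 133 RPM in dcl1-5 and 125 RPM in wild type, with a log2 ratio of 0.09, which was -0.54 relative to that median. CYCD3;1 (AT4G34160) had 10.9 RPM in dcl1-5 and 4.46 RPM in wild type, a ratio of 2.44 [1.48-4.12] and a log2 ratio of 1.12, or 0.49 relative to it. It reached the minimum only through its dcl1-5 value, and it overlaps AT4G34150 on the same strand, so its reads are uncertain.

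Within the CYCD3 reads, 812 in dcl1-5 and 1155 in wild type, AT5G67260 took 164 in dcl1-5, an interval of 17.5% to 23.1%, and 431 in wild type, an interval of 34.5% to 40.2%. AT3G50070 took 73.8% [70.6-76.8] in dcl1-5 and 60.5% [57.6-63.4] in wild type, and AT4G34160 took 6.03% [4.50-7.90] in dcl1-5 and 2.16% [1.41-3.18] in wild type. None of these 3 pairs of intervals overlapped, but counting error alone separates many loci, as said for the CYCB1 genes. AT4G34160 lay in a bin by mean RPM with a median log2 ratio of 0.78. AT5G67260 lay in one with 0.55 and AT3G50070 in one with 0.44. The other 5 D cyclins had 19 reads or fewer in each library. CYCD5;1 (AT4G37630) had 5 reads in dcl1-5 and 19 in wild type, a ratio of 0.327 [0.0955-0.906]. CYCD1;1 (AT1G70210) had 2 reads in dcl1-5 and 12 in wild type, a ratio of 0.207 [0.0225-0.931]. CYCD4;1 (AT5G65420) had 6 reads in dcl1-5 and 5 in wild type, CYCD2;1 (AT2G22490) 2 in dcl1-5 and 1 in wild type, and CYCD7;1 (AT5G02110) 1 in dcl1-5 and 0 in wild type.

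All 5 kinases were compared and none passed 2-fold in either direction, also after the median of all loci was subtracted. Their sum was 285 RPM in dcl1-5 and 256 RPM in wild type, a ratio of 1.11 [1.03-1.20]. AT3G48750, the kinase active through the whole cycle, had 24.4 RPM in dcl1-5 and 18.7 RPM in wild type, a ratio of 1.30 [0.988-1.72]. CDKB1;1 (AT3G54180), a plant-specific kinase of G2 and mitosis, had 83.5 RPM in dcl1-5 and 58.1 RPM in wild type, a ratio of 1.44 [1.24-1.67]. CDKB1;2 (AT2G38620), its close relative, had 33.9 RPM in dcl1-5 and 29.8 RPM in wild type, a ratio of 1.14 [0.909-1.43]. The log2 ratios of these 3 genes, 0.36, 0.52 and 0.18, were -0.26, -0.11 and -0.45 relative to the median of all loci.

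CDKB2;1 (AT1G76540) and CDKB2;2 (AT1G20930) are closely related kinases needed in the shoot meristem, and reads matching both were discarded. AT1G76540 had 72.2 RPM in dcl1-5 and 89.6 RPM in wild type, a ratio of 0.806 [0.699-0.928]. Its log2 ratio of -0.31 was -0.94 relative to the median of all loci. AT1G20930 had 70.7 RPM in dcl1-5 and 59.5 RPM in wild type, a ratio of 1.19 [1.02-1.39] and a log2 ratio of 0.24, which was -0.38 relative to the median of all loci. Summed, the pair had 143 RPM in dcl1-5 and 149 RPM in wild type, a ratio of 0.958 whose interval, 0.863 to 1.06, includes 1. Of all CDK reads, AT1G76540 took 25.4% [23.0-27.8] in dcl1-5 and 35.1% [32.6-37.6] in wild type, and AT3G54180 took 29.3% [26.9-31.9] in dcl1-5 and 22.7% [20.6-25.0] in wild type.

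The KRP inhibitors bind cyclin-CDK complexes and block them, and of the families their sum had the highest ratio. All 6 analysed genes had more RPM in dcl1-5, as had 14150 of the 20612 listed loci, though KRP1 and KRP4 turned to lower under TMM scaling. Of the 6, KRP1 had 4 reads in each library, and KRP6 had 1 in dcl1-5 and 0 in wild type. The KRP sum was 73.6 RPM in dcl1-5 and 25.8 RPM in wild type, a ratio of 2.85 [2.34-3.48]. The sum over all listed loci had a ratio of 0.976, the A cyclins one of 1.24 [1.05-1.46] and the CDKs one of 1.11. KRP5 carried much of the KRP sum, which without it was 168 reads in dcl1-5 and 113 reads in wild type. The RPM ratio without KRP5 was 1.85 [1.45-2.37], an interval that includes the median ratio of all compared loci, 1.59. The KRP genes took 6.60% [5.93-7.32] of the reads of the 43 genes in dcl1-5 and 2.47% [2.09-2.90] in wild type. For comparison, B cyclins took 36.8% in dcl1-5 and 39.5% in wild type, CDKs 25.6% in dcl1-5 and 24.5% in wild type, and D cyclins 16.5% in dcl1-5 and 20.3% in wild type. Of the 3 KRP genes compared, 2 reached 2-fold upwards, beside 33.8% of all loci, and none downwards. Relative to the median of all loci 1 of the 3 was higher, beside 14.6%, and KRP2 was compared only because of its dcl1-5 value.

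KRP5 (AT3G24810), known to promote the endocycle in hypocotyls, had 164 reads and 36.3 RPM in dcl1-5, and 32 reads and 5.70 RPM in wild type. Its ratio was 6.37 [4.34-9.62], the highest of the 23 genes, and its log2 ratio was 2.48. That was 1.85 relative to the median of all loci, 1.86 under TMM scaling and 2.04 under median-of-ratios scaling. Per kb of coding length it was at the 87.6 percentile of loci in dcl1-5 and the 71.3 percentile in wild type. KRP2 (AT3G50630), which in leaves restrains CDKA at the onset of the endocycle, had 10.9 RPM in dcl1-5 and 3.39 RPM in wild type, a ratio of 3.21 [1.85-5.77]. Its log2 ratio of 1.43 was 0.81 relative to the median of all loci, and it reached the minimum only through its dcl1-5 value. KRP4 (AT2G32710) had 21.9 RPM in dcl1-5 and 16.0 RPM in wild type, a ratio of 1.37 [1.02-1.84], with a log2 ratio of 0.43 that was -0.20 relative to the median.

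Under the minimum, KRP7 (AT1G49620) had 15 reads in dcl1-5 and 0 in wild type. Set against the floor of 3 reads in wild type it was 6.22-fold higher in dcl1-5, and the exact 95% lower limit of its ratio was 4.46-fold. KRP1 (AT2G23430) had 4 reads in each library, and KRP6 (AT3G19150) had 1 read in dcl1-5 and 0 in wild type. KRP5 took 49.4% [43.9-54.9] of the 332 KRP reads in dcl1-5 and 22.1% [15.6-29.7] of the 145 in wild type. KRP4 took 29.8% [24.9-35.1] in dcl1-5 and 62.1% [53.6-70.0] in wild type. The leading KRP gene was thus KRP5 in dcl1-5 and KRP4 in wild type.

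**Figure D3:**
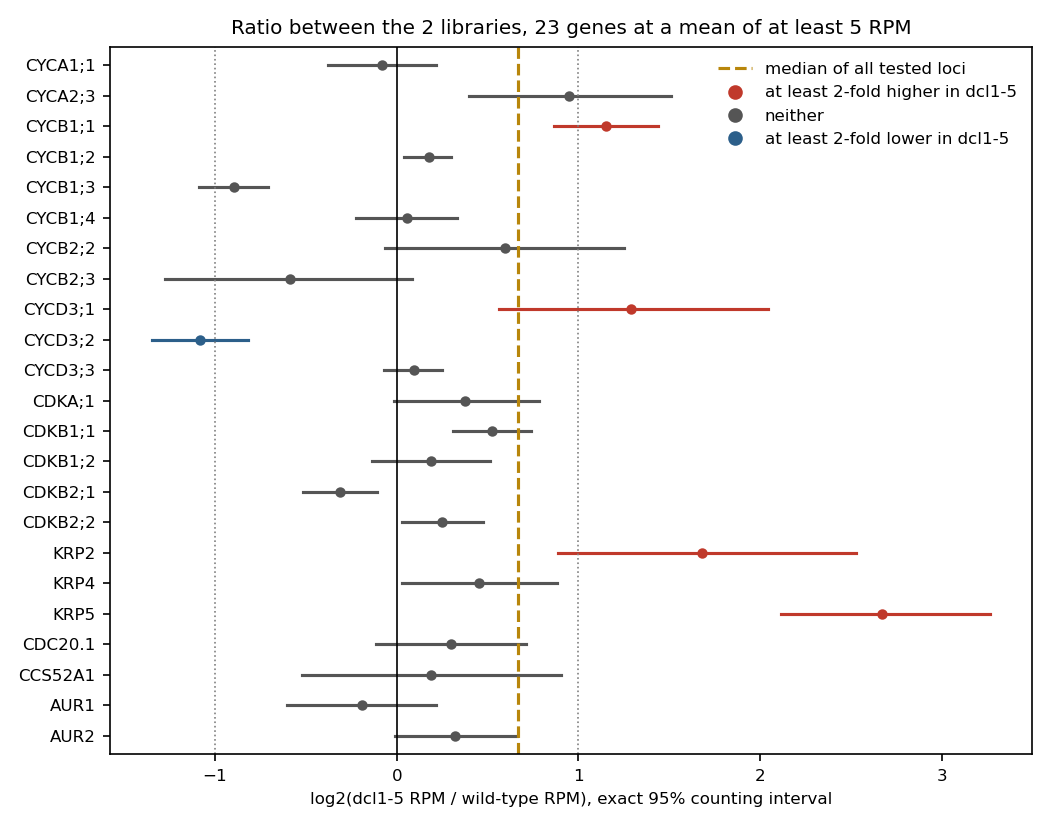
Log2 of the plain RPM ratio, dcl1-5 over wild type, for the 23 compared genes, with exact 95% counting intervals, the median of all compared loci (dashed, a ratio of 1.59) and 2-fold either way (dotted). KRP5 lies farthest right at 6.37-fold, AT5G67260 farthest left at 0.473, and most others between 0 and the dashed line.

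Under the authors' scaling, the activators of the APC/C and the mitotic kinases differed little between the libraries. Relative to the median of all loci, the log2 ratios of CDC20.1, CCS52A1, AUR1 and AUR2 were -0.34, -0.46, -0.81 and -0.31. CDC20.1 (AT4G33270), which activates the APC/C in mitosis, had 21.9 RPM in dcl1-5 and 17.8 RPM in wild type, a ratio of 1.23 [0.923-1.64]. Its near-identical neighbour CDC20.2 (AT4G33260) had 9 reads in dcl1-5 and 12 in wild type, and the pair summed to 23.9 RPM in dcl1-5 and 20.0 RPM in wild type. CCS52A1 (AT4G22910), known for starting the endocycle, had 7.53 RPM in dcl1-5 and 6.59 RPM in wild type, a ratio of 1.14 [0.696-1.87]. Under the minimum, CCS52A2 (AT4G11920) had 10 reads in dcl1-5 and 18 in wild type, with a same-strand overlap, and CCS52B (AT5G13840) had 19 in dcl1-5 and 23 in wild type. All these ratios had intervals that include 1.

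AUR1 (AT4G32830), a kinase of the spindle and the dividing cell plate, had 19.5 RPM in dcl1-5 and 22.3 RPM in wild type, a ratio of 0.875 [0.659-1.16]. The related AUR2 (AT2G25880) had 33.7 RPM in dcl1-5 and 26.9 RPM in wild type, a ratio of 1.25 [0.993-1.58], and the pair summed to 53.2 RPM in dcl1-5 and 49.2 RPM in wild type. AUR3 (AT2G45490), a centromere kinase, had 9 reads in dcl1-5 and 5 in wild type, and WEE1 (AT1G02970), a checkpoint kinase that phosphorylates CDKA, had 13 in dcl1-5 and 7 in wild type. Neither of these reached the minimum, and both intervals include 1.

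Genes known to peak at G2 and mitosis were set beside the others. They were CYCA1;1, the B cyclins, CDKB2;1, CDKB2;2, CDC20.1, CDC20.2, CCS52B and the Aurora kinases. The 18 such genes summed to 673 RPM in dcl1-5 and 675 RPM in wild type, a ratio of 0.998 [0.951-1.05]. Of the 12 compared, 1 reached 2-fold upwards and none downwards, beside 33.8% and 4.58% of all loci. Their median log2 ratio was 0.11, which was -0.51 relative to the median of all loci. Relative to that median none was higher and 2 were lower, beside 14.6% and 14.4% of all loci. The other 25 analysed genes, with CDKB1;1 and CDKB1;2 counted among them, summed to 441 RPM in dcl1-5 and 370.0 RPM in wild type. The ratio was 1.19 [1.12-1.27]. Within this sum the KRP genes had 73.6 RPM in dcl1-5 and 25.8 RPM in wild type. CDKB1;1 had 83.5 RPM in dcl1-5 and 58.1 RPM in wild type, and the D cyclins had 183 RPM in dcl1-5 and 212 RPM in wild type. Of the 11 compared among these 25, 3 reached 2-fold upwards and 1 downwards, beside the same 33.8% and 4.58%. Their median log2 ratio was 0.43, or -0.20 relative to the median of all loci. Relative to it 1 was higher and 1 was lower, beside 14.6% and 14.4%.

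**Figure D4:**
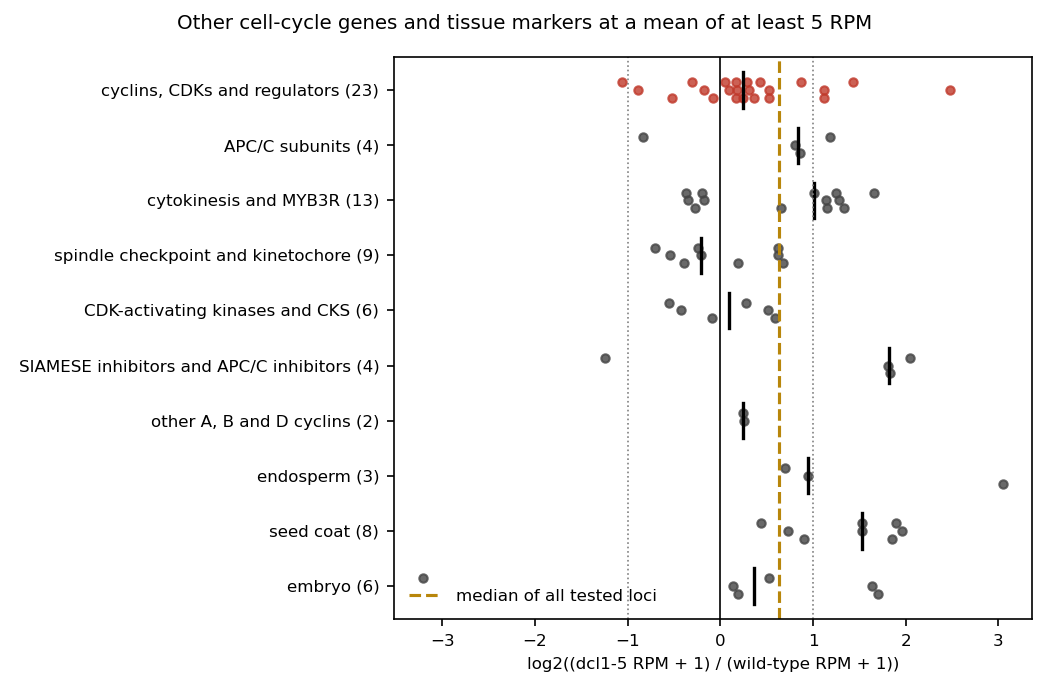
Log2 ratio, dcl1-5 over wild type with 1 RPM added, of each gene averaging 5 RPM or more, in the 23 cell-cycle genes (red), in further lists of the pathway and in tissue markers (grey), with the median of each list (short bar), of all compared loci (dashed, 0.63) and 2-fold either way (dotted). In the SIAMESE list 3 genes lie at 1.81 or above and 1 at -1.25.

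Further genes of the pathway were read in the same libraries, as the plot of pathway lists shows. Each count below stands beside 33.8% of all loci past 2-fold upwards and 4.58% downwards, or 14.6% and 14.4% relative to the median of all loci. In the list of SIAMESE-type inhibitors and APC/C inhibitors, 4 of 8 genes were compared, of which 3 reached 2-fold upwards and 1 downwards, also relative to the median of all loci. SIM (AT5G04470), which stops mitosis in developing leaf hairs, had 33.5 RPM in dcl1-5 and 7.31 RPM in wild type, a ratio of 4.58 [3.22-6.63]. SMR1 (AT3G10525), known for the giant cells of sepals, had 13.3 RPM in dcl1-5 and 3.03 RPM in wild type, a ratio of 4.39 [2.53-8.02]. Their log2 ratios were 2.05 and 1.83, or 1.42 and 1.20 relative to the median of all loci.

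The other genes of this list are given after their values were seen. SMR2 (AT1G08180) had 10.6 RPM in dcl1-5 and 2.32 RPM in wild type, and like SMR1 it reached the minimum only through its dcl1-5 value. SMR4 (AT5G02220) went the other way, with 12.2 RPM in dcl1-5 and 30.3 RPM in wild type, a ratio of 0.402 [0.291-0.548]. UVI4 (AT2G42260), an inhibitor of the APC/C, had 0 reads in dcl1-5 and 39 in wild type. It was 10.5-fold lower in dcl1-5 when that library was set at the floor of 3 reads, with an exact 95% lower limit of 8.11-fold. Its relative OSD1 (AT3G57860) had 5 reads in dcl1-5 and 30 in wild type, a ratio of 0.207 [0.0628-0.539]. Both lay under the mean of 5 RPM, a minimum that a gene absent from dcl1-5 passes only with more than 10 RPM in wild type.

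Of the APC/C subunits, 4 of 11 were compared, with 1 past 2-fold upwards and none downwards, and a median log2 ratio of 0.84. Relative to the median of all loci none was higher and 1 was lower. APC8 (AT3G48150) had 17.1 RPM in dcl1-5 and 6.95 RPM in wild type, a ratio of 2.45 [1.65-3.71], and HBT (AT2G20000) had 7.31 RPM in dcl1-5 and 3.56 RPM in wild type. Chosen after its values were seen, APC2 (AT2G04660), the cullin-like core subunit, had 0 reads in dcl1-5 and 31 in wild type. It was 8.31-fold lower in dcl1-5 when that library was set at the floor of 3 reads, with an exact 95% lower limit of 6.37-fold.

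Of 19 genes of cytokinesis and of the MYB3R factors that control mitotic genes, 13 were compared, with 7 past 2-fold upwards and none downwards, and a median log2 ratio of 1.01. Of the 7, 3 had under 5 RPM in wild type and were compared only because of their dcl1-5 values. Relative to the median of all loci 1 was higher and 1 was lower. KEU (AT1G12360), a Sec1-type protein of cell plate formation, had 21.3 RPM in dcl1-5 and 6.06 RPM in wild type, a ratio of 3.51 [2.35-5.36]. MAP65-1 (AT5G55230), a microtubule bundling protein, had 20.4 RPM in dcl1-5 and 7.48 RPM in wild type, a ratio of 2.72 [1.87-4.02]. The cell plate syntaxin KN (AT1G08560), named after its values were seen, had the most RPM of the list, 237 RPM in dcl1-5 and 301 RPM in wild type.

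Among 13 genes of the spindle checkpoint and kinetochore, 9 were compared and none passed 2-fold, with a median log2 ratio of -0.21. Relative to the median of all loci none was higher and 3 were lower. The centromeric histone CENH3 (AT1G01370) had 29.0 RPM in dcl1-5 and 48.1 RPM in wild type, a ratio of 0.603 [0.486-0.746], and the kinetochore protein MIS12 (AT5G35520) had 8.86 RPM in dcl1-5 and 5.17 RPM in wild type. Of 8 CDK-activating kinase and CKS genes, 6 were compared and none passed 2-fold, with a median of 0.09, and relative to the median of all loci none was higher and 2 were lower. MAT1 (AT4G30820), an assembly factor of the activating kinase, had 6.43 RPM in dcl1-5 and 3.92 RPM in wild type, and CYCH;1 (AT5G27620), its cyclin, had 8.42 RPM in dcl1-5 and 12.8 RPM in wild type. Of 7 other A, B and D cyclins 5 were analysed and 2 compared, neither past 2-fold. These were CYCD4;2 (AT5G10440) at 9.53 RPM in dcl1-5 and 7.84 RPM in wild type, and CYCA3;4 (AT1G47230) at 7.31 RPM in dcl1-5 and 6.06 RPM in wild type.

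Summed by tissue, markers of the tissues around the embryo were also higher in dcl1-5, and those named here were chosen after their values were seen. All 12 seed coat markers had more RPM in dcl1-5, as had 14150 of the 20612 listed loci. Of the 12, MUM4 (AT1G53500) turned to lower under TMM scaling. The 12 markers summed to 489 RPM in dcl1-5 and 159 RPM in wild type, and none was at 0 in either library. Of the 8 compared, 5 reached 2-fold upwards, beside 33.8% of all loci, and none downwards, and 2 of the 5 were compared only because of their dcl1-5 values. BAN (AT1G61720), a defining gene of the inner seed coat, had 125 RPM in dcl1-5 and 32.6 RPM in wild type. Of the 6 endosperm markers analysed, 4 had more RPM in dcl1-5, with a sum of 58.0 RPM in dcl1-5 and 27.4 RPM in wild type, and none was at 0 in either library. Of the 3 endosperm markers compared, 1 reached 2-fold upwards, beside 33.8% of all loci, and none downwards. That 1 was FIS2 (AT2G35670), a Polycomb gene of the endosperm, compared only because of its dcl1-5 value. It had 11.7 RPM in dcl1-5 and 0.535 RPM in wild type. The other way went AGL62 (AT5G60440), with 1 read in dcl1-5 and 9 in wild type, and ZOU (AT1G49770), with 1 in dcl1-5 and 3 in wild type. The 6 embryo markers summed to 634 RPM in dcl1-5 and 500 RPM in wild type. All 6 were compared and differed both ways, 2 past 2-fold upwards and 1 downwards, beside 33.8% and 4.58% of all loci. WOX8 (AT5G45980) had 16.2 RPM in dcl1-5 and 4.28 RPM in wild type, and was compared only because of its dcl1-5 value. WOX9 (AT2G33880) had 29.9 RPM in dcl1-5 and 8.91 RPM in wild type. DRN (AT1G12980) had 1.99 RPM in dcl1-5 and 26.7 RPM in wild type. The seed coat sum had a ratio of 3.07 [2.84-3.32], beside 2.85 [2.34-3.48] for the KRP sum. The log2 ratio of KRP5, 2.48, lay above those of the compared seed coat markers, 0.44 to 1.96, and below that of FIS2, 3.05. In plain ratios, the seed coat markers TT10 and TTG2 reached 10.8 [3.30-55.6] and 9.32 [2.17-84.0], beside 6.37 [4.34-9.62] for KRP5. TT8 and TT16 reached 7.71 [2.97-25.4] and 7.46 [2.87-24.6], and all of these markers were under the minimum. The part of seed coat or endosperm RNA in the values of KRP5, KRP2, KRP7, SIM, SMR1 and SMR2 was not tested.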

How the data were processed

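The deposited table holds RPM values, scaled by the authors to the total of genome-matching reads, per the file headers. Reads were aligned to TAIR9 with Bowtie, per the submitters' processing notes, and the uniquely mapped ones were counted by strand, per the series' design text. Discarding multiply mapped reads lowers near-identical genes. Dividing by the value of 1 read gave whole reads for 100% of values, with a tolerance of 0.01 reads, and 88.0% of reads in dcl1-5 and 90.2% in wild type lay in listed loci. An exact conditional binomial test on those reads, with Benjamini-Hochberg adjustment at 0.05, called 7567 of 10240 loci, 6101 higher and 1466 lower in dcl1-5, and speaks of these 2 libraries and not of the genotypes. Ratio intervals are conditional Clopper-Pearson ones, RPM intervals Poisson.

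The members and lists were chosen with earlier results of these data known. All members are named, and from each further pathway list up to 2 genes with the largest absolute log2 ratio among those averaging 5 RPM or more. Tissue markers, and other genes where stated, were named after their values were seen. The RefSeq annotation of TAIR10.1 matched 20509 loci and gave names, coding lengths and overlaps. Among the members, 12 overlap a locus on the other strand and 2 one on the same strand. Of the listed genes, 1 that it annotates as another gene was left out. No sequence or coordinate is printed, because that assembly is not the authors' build, and the planned protein and promoter features are not used here. Calculations used Python 3.11.15, numpy 2.4.6, pandas 2.3.3, scipy 1.17.1, matplotlib 3.10.9, R 4.3.3 and edgeR 4.0.16 (TMM factors), and were tested on simulated data. Alternatives were other pseudocounts, filters, scalings and thresholds.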

Additional observations from a re-analysis of the deposited data

How the results depend on the processing

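As reported, 4 of the 23 genes were at least 2-fold higher in dcl1-5, 1 was lower, and their median log2 ratio was 0.24. A pseudocount of 5 RPM gave 2 higher and 0 lower, beside 23.3% and 3.12% of all loci, and a 4-fold threshold gave 1 higher and 0 lower, beside 7.82% and 0.811%. With no filter on low values there were 7 higher and 4 lower of 43, beside 27.7% and 5.60% of all loci, and at a mean of at least 20 RPM 2 higher of 15. The binomial test of reads gave 9 higher and 3 lower, beside 59.6% and 14.3%. TMM scaling gave 1 higher, 3 lower and a median of -0.42. Median-of-ratios scaling gave 2 higher, 2 lower and a median of -0.23. Subtracting the median of all compared loci gave 1 higher, 3 lower and a median of -0.38. Subtracting the median of loci in the same of 10 bins by mean RPM, chosen after seeing the data, gave 1 higher, 3 lower and a median of -0.33, beside 13.4% of all loci in each direction. These scalings and centrings turned the sign of the median of the 23 genes, which before them was 0.24, beside 0.63 for all loci. They also changed the sign of 10 to 12 of the 23 genes. A pseudocount of 0.1 RPM and equal totals changed no sign and none of the 5 calls. KRP5 passed 2-fold upwards in each of these settings. CDKB2;1 had a log2 ratio of -0.31 alone and -0.06 summed with CDKB2;2.

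No paired analysis was possible because there is 1 library per genotype. For the same reason no value has a replicate, and the genotype cannot be told apart from the library. Reads limit genes under 5 RPM: 20 of the 43 genes lay there, 4 of them with 0 reads in wild type.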
